A study of Xenopus laevis with 5 samples.

Results

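The genes described here are 7 transcriptional repressor genes of the Hes and Hey families (hey1.S, both homeologs of hes1 and of hes4, and hes5.1.L with hes5.10.L) and nrarp.S, a feedback inhibitor of Notch signalling. They were taken as every probe set, the group of short probes that reads 1 transcript, to which the annotation of the Affymetrix array gives one of these symbols. This gave 14 probe sets of 8 genes, out of 15491 probe sets in all. The endings .L and .S mark homeologs, the copies of a gene on the long and short subgenomes of the allotetraploid frog Xenopus laevis. The study measured RNA of epithelial explants on 5 arrays. Embryos received synthetic mRNA for ICD (3 arrays) or HMM (2 arrays) at the 2-cell stage, the presumptive ectoderm was explanted at stage 9 to 10, and RNA was taken when explants had reached the equivalent of stage 22. All explants of both groups were handled alike, with embryos kept in 0.1X MMR saline and explants in Danilchik's medium with 0.1% BSA, and no uninjected explants were analysed here. Whether higher in ICD means raised by ICD or lowered by HMM cannot be told apart. The labels do not spell out the injected agents; in this field ICD is the usual name of the Notch intracellular domain and HMM that of a truncated human Mastermind that blocks it. They also give no number of explants or embryos per array, so p-values measure the spread between these arrays.

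In Notch signalling a ligand on one cell releases the intracellular domain of the receptor on its neighbour, and this domain joins the DNA-binding protein RBPJ and the coactivator Mastermind to switch on target genes. Many direct targets are hes and hey genes. Their proteins carry a basic helix-loop-helix domain and a C-terminal peptide that recruits Groucho co-repressors, and they shut off genes that would turn a cell towards a specialised fate. In the frog's larval skin, Notch limits how many inner-layer cells become multiciliated cells and ionocytes.

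Values are MAS5 signals, an intensity on a linear scale that has been brought to a common trimmed mean on each array. A probe set was tested if it lay above 42.6, the 40th percentile of all values, on at least 2 arrays, which 9981 did. Differences are ICD minus HMM of log2(signal + 5.9), a scale that understates the change of dim probe sets. Median signal per array lay between 62.1 and 72.7. ICD replicate 3 stood apart in its poly-A spike-in controls, with a median of 2.95 over 24 probe sets against 318.2 to 355.5 on the other arrays. Counts of called probe sets without it are given with those for the other arrays left out. Differences without it are given below for the tested probe sets described here. Of 24 epidermis genes on the marker list 22 were bright enough to test, and the lectin gene itln1.L, made by goblet cells, read from 5924.8 to 10404.4 on all arrays.

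Of the 14 probe sets, 10 were bright enough to test and 4 were not. A single one, that of hes4.L, passed the threshold in the comparison of ICD with HMM, and it was higher in ICD (limma adjusted p = 0.0247). Of all tested probe sets, 1.55% were called higher in ICD and 3.5% lower, 5.05% in all. Differences of hes4, hes5 and hey1 probe sets that were tested were all above 0, and those of the hes1 homeologs were below 0. On 8 of the 14 probe sets every ICD array read above both HMM arrays, which was so for 16.3% of all probe sets, and on hes1.L every ICD array read below both, which was so for 16.5%. Among the tested probe sets, 2 (hes5.1.L and 1 of hey1.S) passed the filter only through their ICD arrays and 1 (hes1.L) only through its HMM arrays, so that some difference was built into their passing.

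**Figure D1:**
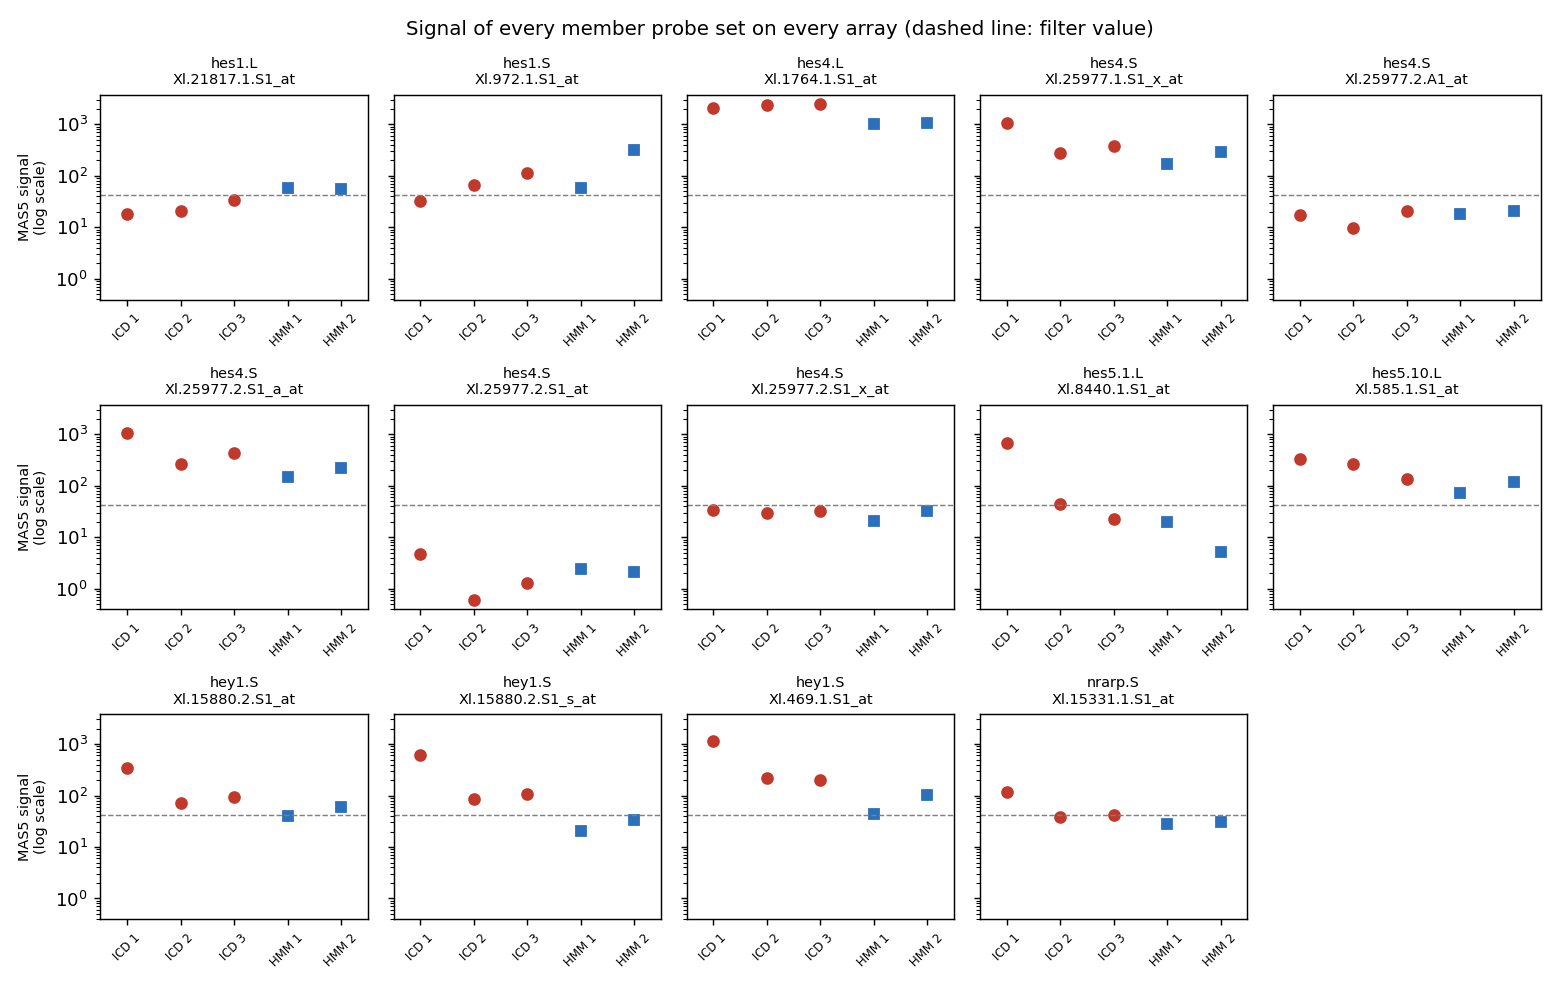
MAS5 signal (log axis) of each of the 14 probe sets on each array, with ICD arrays as red circles, HMM arrays as blue squares and the filter value of 42.6 as a dashed line. The hes4.L panel shows 3 ICD arrays close together above 2 HMM arrays, while in the hey1.S and hes5.1.L panels ICD replicate 1 stands far above the other arrays.

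The gene hes4, also called hairy2, encodes a repressor that keeps neural border and other embryonic cells undifferentiated in the frog. The hes4.L probe set (Xl.1764.1.S1_at) read 2035.9, 2337.4 and 2476.1 on ICD replicates 1, 2 and 3, and 1015.1 and 1075.1 on HMM replicates 1 and 2. The groups were far apart for their spread, with the lowest ICD array 1.89-fold above the highest HMM array. The difference was 1.12 ± 0.19 (SE) on the log2 scale, or 2.17-fold (95% interval 0.67 to 1.57; limma adjusted p = 0.0247). The call was lost when any array other than ICD replicate 1 was left out, with differences of 1.06 to 1.16 and adjusted p from 0.0792 without ICD replicate 3 to 0.168 without HMM replicate 2. These fits have fewer samples, and without an HMM array the lone remaining one is assumed to vary like the ICD arrays. It was also lost in eBayes without a variance trend (adjusted p = 0.0502). With ICD replicate 1 left out, hes4.L differed by 1.20 and kept its call (limma adjusted p = 0.0175).

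The other homeolog, hes4.S, had 5 probe sets that did not give the same picture. The _a_at probe set (Xl.25977.2.S1_a_at), an ending that marks probes shared by transcripts of 1 gene, read 1059.2, 267.9 and 434.8 in ICD and 150.2 and 224.1 in HMM. The groups did not overlap, but ICD replicate 1 was 2.44-fold above the next highest ICD array. The difference of 1.41 ± 0.55 (SE) did not pass (95% interval 0.12 to 2.70, limma adjusted p = 0.213). It was 0.87 without ICD replicate 1 and 1.51 without ICD replicate 3. A second set (Xl.25977.1.S1_x_at), whose ending marks probes that may also match other transcripts, read 1075.8, 279.0 and 373.7 in ICD and 171.4 and 291.9 in HMM. Here ICD replicate 2 lay below HMM replicate 2, and the difference was 1.09 ± 0.57 (SE, limma adjusted p = 0.355). Without ICD replicate 1 it was 0.52, and without ICD replicate 3 it was 1.27. Whether this set also reads hes4.L was not tested. The remaining 3 hes4.S probe sets were too dim to test: Xl.25977.2.S1_x_at lay between 20.9 and 33.9, Xl.25977.2.A1_at between 9.6 and 20.9 and Xl.25977.2.S1_at between 0.6 and 4.7, with overlapping groups in each.

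The change of the hes4.L over hes4.S ratio within an array was tested over all 690 genes that had a tested probe set for both homeologs. The log2 ratio of hes4.L to the _x_at probe set of hes4.S was 0.92, 3.04 and 2.71 on ICD replicates 1, 2 and 3, and 2.53 and 1.86 on HMM replicates 1 and 2. The ratio on ICD replicate 1 thus lay below that on every other array, hes4.S being high on that array and hes4.L the lowest of its group. Between the groups the ratio changed by 0.03 ± 0.65 (SE; 95% interval -1.53 to 1.59), and this did not pass (limma adjusted p = 0.986). No unequal response of the homeologs was detected, within the bounds of this wide interval. Of the 690 pairs tested, 0.145% were called, which is 1 pair, and 70 pairs had an unadjusted p under 0.05.

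**Figure D2:**
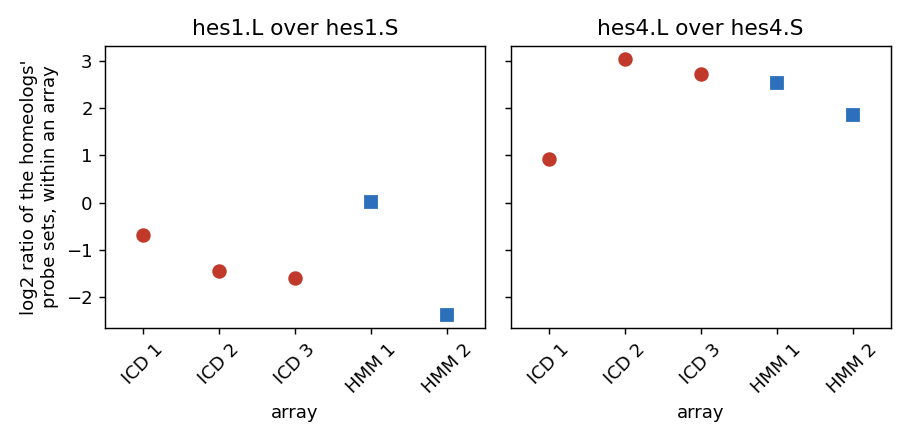
Log2 ratio of the L to the S probe set of hes1 and of hes4 within each array (red circles ICD, blue squares HMM). The height of a ratio depends on the probes and has no meaning of its own; for hes4 the ratio is lowest, at 0.92, on ICD replicate 1, and for hes1 the HMM arrays lie at both ends, at 0.01 and -2.37.

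The gene hey1 encodes a repressor related to the Hes proteins that is a direct Notch target in many tissues. Its .S homeolog was read by 3 probe sets, and on each of them every ICD array lay above both HMM arrays. The brightest (Xl.469.1.S1_at) read 1154.7, 222.7 and 200.9 in ICD and 44.3 and 101.8 in HMM. The _s_at set (Xl.15880.2.S1_s_at), an ending that marks probes shared by several transcripts, read 618.9, 85.7 and 106.9 in ICD and 20.1 and 33.2 in HMM. On the third (Xl.15880.2.S1_at) the signals were 341.4, 72.2 and 93.3 in ICD and 40.4 and 60.2 in HMM.

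In all 3 sets ICD replicate 1 was far above ICD replicates 2 and 3, by 3.66-fold to 5.79-fold over the higher of them. The differences were 2.37 ± 0.76, 2.55 ± 0.79 and 1.33 ± 0.62 (SE, in the same order), and none passed (limma adjusted p = 0.14, 0.13 and 0.305). Without ICD replicate 1 the differences were smaller, at 1.56, 1.67 and 0.67, and the first 2 were called (limma adjusted p = 0.0464 and 0.0217). The _s_at set had passed the filter only through its ICD arrays, so some difference was built into its being tested. Leaving out ICD replicate 2 instead gave differences of 2.74, 3.06 and 1.75, and leaving out ICD replicate 3 gave 2.81, 2.91 and 1.57. None of these was called (limma adjusted p from 0.12 to 0.375). With either HMM array left out the differences ran from 1.07 to 2.92. With ICD replicate 1 left out, 3 of the 10 tested probe sets were called higher, hes4.L being the other. Of all tested probe sets 3.63% were.

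The hes5 genes form a large family in frogs, and hes5.1 and hes5.10 are better known there as esr1 and esr6e. The first is a Notch target of the neural plate, and the second is expressed in the larval epidermis. The hes5.1.L probe set (Xl.8440.1.S1_at) read 660.7, 44.7 and 23.0 in ICD and 20.0 and 5.2 in HMM. The groups did not overlap, but ICD replicate 3 and HMM replicate 1 were only 1.15-fold apart, and ICD replicate 1 was 14.8-fold above the next array. The difference was 2.55 ± 1.24 (SE; 95% interval -0.36 to 5.46) and was not called (limma adjusted p = 0.322); it was 1.17 without ICD replicate 1 and 3.44 without ICD replicate 3.

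For hes5.10.L (Xl.585.1.S1_at) the signals were 332.2, 259.2 and 136.3 in ICD and 71.5 and 116.5 in HMM. Again every ICD array was above both HMM arrays, and ICD replicate 1 was 1.28-fold above ICD replicate 2, far less than for hes5.1.L. The difference was 1.26 ± 0.42 (SE; 95% interval 0.27 to 2.26), or 2.40-fold, and was not called (limma adjusted p = 0.153). It ran from 0.93 to 1.62 when single arrays were left out, the latter without ICD replicate 3.

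The hes1 gene, called hairy1 in frogs, encodes the repressor whose mammalian counterpart is among the best known Notch targets, and its probe sets went the other way. The hes1.L set (Xl.21817.1.S1_at) read 18.2, 21.0 and 33.9 in ICD and 58.7 and 55.7 in HMM. It was dim, with no ICD array above the filter value, but the groups did not overlap. The difference of -1.09 ± 0.35 (SE, 95% interval -1.91 to -0.28) did not pass (limma adjusted p = 0.134). Without ICD replicate 3 it was -1.31. The hes1.S set (Xl.972.1.S1_at) read 32.7, 66.8 and 114.2 in ICD and 58.4 and 312.7 in HMM. Its groups overlapped, and HMM replicate 2 was 5.35-fold above HMM replicate 1. The difference was -1.04 ± 0.73 (SE; limma adjusted p = 0.492), and without HMM replicate 2 it was 0.114. The homeolog ratio of hes1 changed by -0.05 ± 0.69 (SE; 95% interval -1.72 to 1.61; limma adjusted p = 0.986).

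The gene nrarp encodes a small ankyrin-repeat protein that binds the Notch intracellular domain with RBPJ and promotes its breakdown, and it is itself a Notch target. Its .S homeolog (Xl.15331.1.S1_at) read 114.8, 38.1 and 42.6 in ICD and 27.6 and 31.2 in HMM. All ICD arrays were above both HMM arrays, and ICD replicate 1 was 2.69-fold above ICD replicate 3. The probe set just missed the filter, since ICD replicate 3 lay at the filter value itself, while hes5.1.L just passed it with 44.7 on its second array. In a fit with no filter, nrarp.S differed by 0.85 ± 0.47 (SE; 95% interval -0.25 to 1.96) and was not called (limma adjusted p = 0.45).

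**Figure D3:**
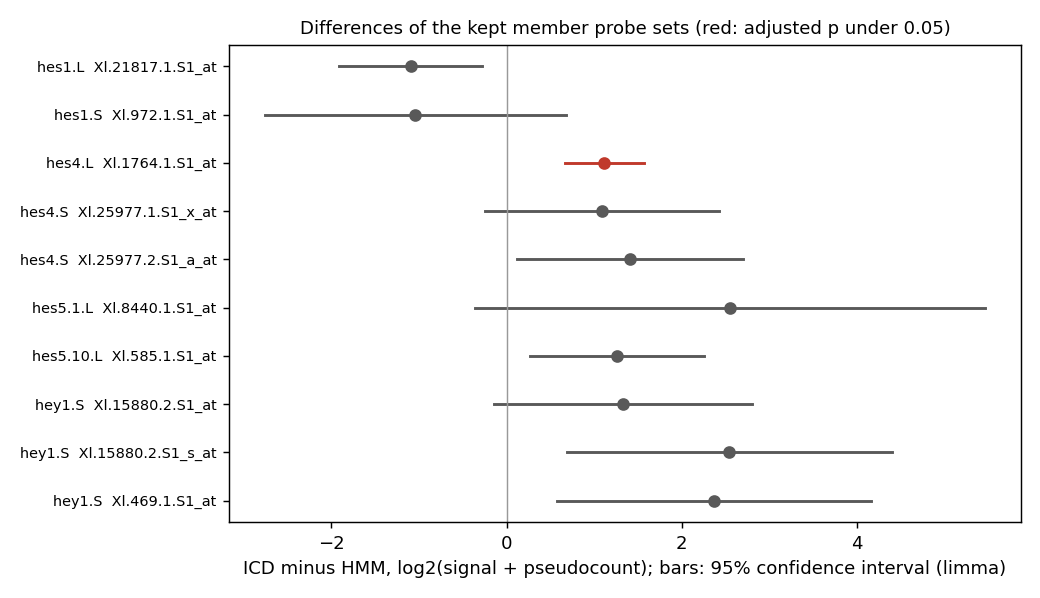
ICD minus HMM difference of the 10 tested probe sets on the log2(signal + 5.9) scale, with 95% confidence intervals from limma that are not adjusted for multiple tests. The interval of hes4.L, in red, runs from 0.67 to 1.57 and is the narrowest; that of hes5.1.L runs from -0.36 to 5.46.

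The spread within the ICD group had a shape of its own. On 8 of the 14 probe sets (6 of the 10 tested) ICD replicate 1 was at least 2-fold above both other ICD arrays. This held for 2.21% of all tested probe sets and for 3.43% of all probe sets. The 8 were the 3 sets of hey1.S, hes5.1.L, nrarp.S and 3 sets of hes4.S, the last including the very dim Xl.25977.2.S1_at. On hes4.L and on both hes1 homeologs, by contrast, ICD replicate 1 was the lowest of its group. Relative to its mean over the 5 arrays, ICD replicate 1 lay at 3.77 for hes5.1.L, at 2.76, 2.56 and 1.85 for hey1.S, and at 0.29 for hes4.L, all on the log2 scale. HMM replicate 2 was above HMM replicate 1 on 8 of the 10 tested sets, the exceptions being hes1.L and hes5.1.L. How often this held over all tested probe sets was not computed.

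**Figure D4:**
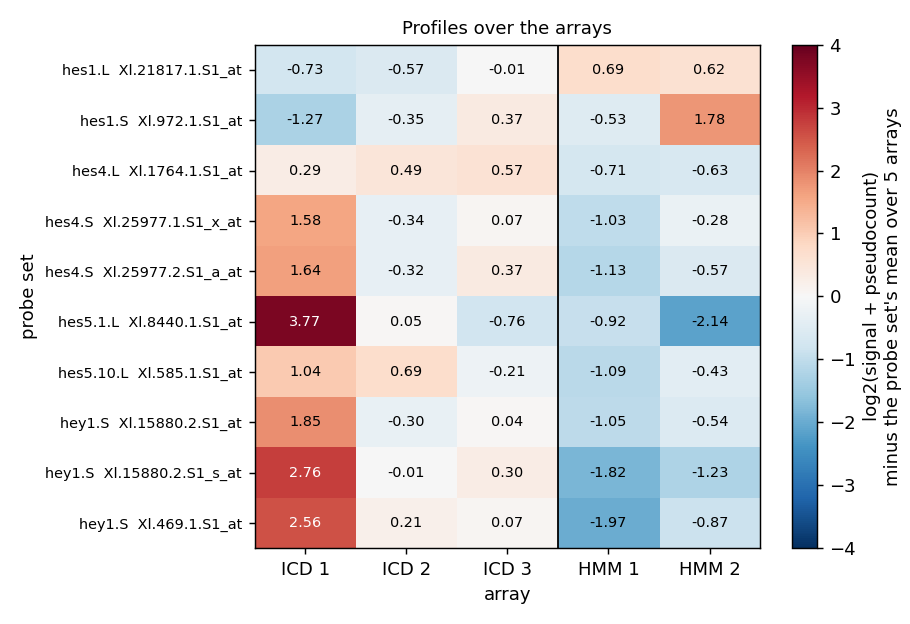
Log2(signal + 5.9) of each tested probe set minus its mean over the 5 arrays, ICD arrays left of the black line and HMM arrays right of it. ICD replicate 1 carries the highest value in 7 of the 10 rows, up to 3.77 for hes5.1.L, a share not computed over all tested probe sets. The hes4.L row differs between the groups with little spread inside them.

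Profiles of the tested sets on this scale were compared in pairs, and no grouping of them was tested. The smallest root mean square difference between 2 profiles was 0.17 (log2, 5 arrays), between hes4.S (Xl.25977.1.S1_x_at) and hey1.S (Xl.15880.2.S1_at). It was smaller than that between both hes4.S sets, 0.19, and than that between the other 2 hey1.S sets, 0.24. The hes4.L profile was 0.53 away from hes5.10.L and 0.75 from the _x_at set of hes4.S. Between hes1.L and hes1.S it was 0.81. These distances are descriptions over the same 5 arrays and carry no test.

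Other Hes-family genes on the array were all too dim to test. They numbered 13 probe sets of 9 genes, 7 of them reading 5 further hes5 genes. On 6 of those 7 hes5 sets the highest of the 5 arrays was ICD replicate 1, a share not computed over all probe sets. On 5 of the 7, ICD replicate 1 was at least 2-fold above both other ICD arrays. That held for 5.63% of all probe sets below the filter. The sets of hes5.5.S disagreed. Xl.9271.1.S1_at and Xl.9271.1.S1_x_at were both among the 5, so these are not all separate genes. Its set Xl.9271.1.A1_at read 20.6, 15 and 9.3 in ICD and 22.8 and 12 in HMM, highest on HMM replicate 1. The hes5.6.L set read 110.5, 12.1 and 11.5 in ICD and 3.7 on both HMM arrays. The hes5.3.L set read 80.6, 1.9 and 12.6 in ICD and 1.9 and 0.9 in HMM. For hes5.2.S the signals were 60.1, 8.7 and 10.7 in ICD and 10.7 and 4.1 in HMM. In the RefSeq annotation of assembly Xenopus_laevis_v10.1, hes5.2.L lies next to hes5.1.L and hes5.9.L next to hes5.10.L. Whether probes of one hes5 gene also bind RNA of another was not tested.

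**Figure D5:**
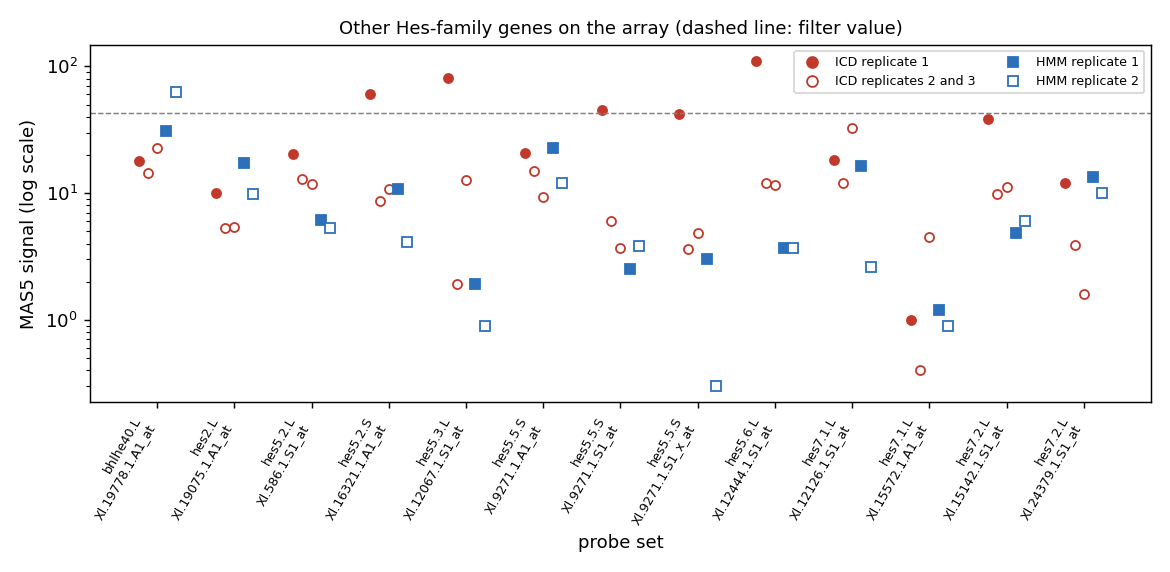
MAS5 signal (log axis) of 13 probe sets of other Hes-family genes, with ICD as circles and HMM as squares, replicate 1 filled, and the filter value of 42.6 as a dashed line. ICD replicate 1 stands highest on 6 of the 7 hes5 sets, at 110.5 for hes5.6.L and 80.6 for hes5.3.L.

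Markers of epidermis and of other cells were set beside these differences, and the part of such cells in them was not tested. Of the 22 epidermis genes 7 were called higher, none lower and 15 were not called. Only 12 of the 22 differences were above 0. Among those below 0 were grhl3.L (-0.82), grhl1.L (-0.56) and the keratin gene krt12.4.S (-0.49), none of them called. Largest among the 7 were the differences of the keratin gene krt19 (2.22 for krt19.S and 1.73 for krt19.L), the tight junction gene cldn1.S (1.66) and tp63.L (1.56), a transcription factor gene of basal cells; the adhesion gene epcam.L had the smallest (0.94). The count was 2 with ICD replicate 3 left out, 4 with HMM replicate 1 left out and 0 with the second replicate of ICD or of HMM left out. The list's median difference was 0.09, and its summed signal overlapped between the groups, from 78683.2 to 99633 in ICD and from 71675.8 to 84693.5 in HMM. The summed signal of 12 ionocyte genes was 352.1, 519.6 and 536.5 on ICD replicates 1, 2 and 3, and 16191.9 and 29924.4 on HMM replicates 1 and 2. That of 19 multiciliated cell genes was 899.4, 2163.1 and 2831.7 in ICD and 9926.8 and 19259.6 in HMM. ICD replicate 1, on which hey1.S and hes5.1.L were highest, had the lowest sums of both lists. On that same array hes4.L, hes1.L and hes1.S read lowest among the ICD arrays. HMM replicate 1 had lower sums than HMM replicate 2. Between these arrays every hey1.S set was also lower on HMM replicate 1 (44.3 against 101.8 for the brightest), while hes5.1.L was higher there (20.0 against 5.2). Of the ionocyte genes 11 were called lower and of the multiciliated genes 15, and none was called higher. Leaving out HMM replicate 2 brought these counts to 7 and 0. The multiciliated count was also 0 with ICD replicate 2 left out, and 8 with ICD replicate 3 left out. Over all tested probe sets, with all arrays, 3.5% were called lower and 1.55% higher. Some of the called ionocyte and multiciliated genes, such as ca12.L, foxi1.L and dnaaf4.L, had every ICD array below the filter value. They passed the filter only through their HMM arrays, so some difference was built into their being tested. In RNA of whole explants, fewer cells of a type and less RNA per cell cannot be told apart.

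Other tissues that use hes4 and hes5 genes were checked too. The array held 39 genes that mark cement gland, neural crest or neural plate, of which 20 could be tested and 2 were called higher, the cement gland gene ag1.S and the head gene otx1.L. Of the 20 differences 18 were above 0, with a median of 0.66 against 0.08 over all tested probe sets. Counting every tested probe set instead of the brightest of each gene gave 6 called higher, 3 of them sets of the eye and brain gene pax6.L, whose brightest set was not called. That brightest set was itself dim, at 48.3, 64.4 and 75.3 in ICD and 43.9 and 28.2 in HMM. The 3 called sets were dimmer on average. Whether they passed the filter only through their ICD arrays was not checked. The list count was 9 with ICD replicate 1 left out, 1 with ICD replicate 3 left out and 0 when the second replicate of either group was. Over the 20 genes, the summed signal ran from 19344.3 to 25732 in ICD and from 11643.3 to 12319.9 in HMM, and it was lowest among the ICD arrays on replicate 1. Most of this sum came from the cement gland genes ag1.S and ag1.L, so it says little about the other genes of the list. In ICD ag1.S read 7093.1, 7654 and 6865.8 and ag1.L 6808.5, 6884.4 and 6941.3. In HMM ag1.S read 2989.8 and 3521.8 and ag1.L 5110.8 and 4131.6. Of 22 muscle and mesoderm genes, 20 were too dim to test and 1, the creatine kinase gene ckm.L, was called higher unless the second replicate of either group or ICD replicate 3 was left out. The other tested gene, tnni2.S, went the other way, with a difference of -0.49, and was not called (limma adjusted p = 0.691). It read 352.1, 152.7 and 103.2 in ICD and 390 and 161.7 in HMM. The summed signal of the 2 tested genes ran from 652.3 to 845.8 in ICD and from 317.7 to 607 in HMM. No tested gene of these lists was listed at 0 on any array. The part of such cells in the hes and hey signals was not tested.

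Other genes of the pathway were described by list. Of 4 receptor and ligand genes tested 1 was called, the ligand gene jag1.L, with a difference of 2.35. Its HMM arrays, at 18.3 and 40.7, lay below the filter value, so it passed the filter only through its ICD arrays. The receptor gene notch1.S differed by 0.996, and the ligand genes dlc.L and dll1.L by -1.35 and -0.70. These 3 were not called (limma adjusted p = 0.148, 0.33 and 0.623). The median over the 4 was 0.15, where that of all tested probe sets was 0.08. Of 12 genes that process ligands or receptors, 1 was called lower (neurl1.L, a ubiquitin ligase gene, at -4.18), with a median of 0.19. The ICD arrays of neurl1.L, at 4.6, 12.9 and 39.1, all lay below the filter value, so it passed only through its HMM arrays. For jag1.L and neurl1.L some difference was thus built into their being tested. Leaving out ICD replicate 2 or HMM replicate 2 ended both calls, and leaving out ICD replicate 3 ended that of jag1.L. The metalloprotease gene adam10.S, which cleaves Notch at the cell surface, differed by 0.51, poglut1.S, the gene of an enzyme that adds sugars to Notch, by 0.60 and the gamma-secretase subunit gene psenen.L by 0.46, with limma adjusted p of 0.267, 0.319 and 0.341, so that none of the 3 was called.

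Of 11 genes of the nuclear complex and its co-repressors, 1 was called. It was tle5.L, a short member of the Groucho family without the WD repeats that bind Hes repressors, which read 298.3, 411.6 and 319.9 in ICD and 136.2 and 117.7 in HMM. All ICD arrays were above both HMM arrays, and the difference was 1.38 ± 0.26 (SE; limma adjusted p = 0.032). Leaving out any array other than the first ICD replicate ended its call. Its homeolog tle5.S, the Groucho gene tle2.L and the co-repressor gene ncor1.S had differences of 0.82, 0.59 and 0.46 that missed the threshold (limma adjusted p = 0.19, 0.267 and 0.359). The gene of the DNA-binding partner, rbpj.S, read 134.5, 169.6 and 170.1 in ICD and 117.7 and 119.2 in HMM, which differ by 0.39 (limma adjusted p = 0.455, not called). The median over the 11 was 0.38.

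Id genes, whose proteins also hold back differentiation by binding helix-loop-helix partners, gave 5 tested genes and no call. For id2.S the signals were 642.5, 511.1 and 706.8 in ICD and 1212.9 and 1200.7 in HMM, all ICD arrays being below both HMM arrays, with a difference of -0.97 (limma adjusted p = 0.066). Its homeolog id2.L differed by -0.85 (limma adjusted p = 0.14). The median over the 5 was -0.36. Proneural and neuronal genes, which Hes repressors shut off in the nervous system, were mostly dim: 17 of 21 could not be tested. Of the other 4 the intermediate filament gene prph.S was called higher, at 2.11, with HMM arrays at 5.5 and 19.2, below the filter value. Its homeolog prph.L differed by -0.22 (limma adjusted p = 0.732). The genes insm1.L and tubb2b.S differed by -1.42 and 0.93 (limma adjusted p = 0.154 and 0.165). The call of prph.S rested on each array but the first ICD replicate, since leaving out any of those ended it.

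For each tested probe set, the 3 nearest probe sets with 1 symbol among the other genes of the array were found by the same root mean square difference over the 5 arrays. The 14 probe sets themselves were left out of this search; being the nearest of many, the genes found are close by selection. Among these other genes, nearest to hes4.L were c18orf21.L, vamp1.L and the RNA-binding protein gene cirbp.S, at 0.04, 0.05 and 0.07. Nearest to hes5.10.L were the replication checkpoint gene topbp1.L, the small GTPase gene ras-dva1.L and the homeobox gene dlx6.S, at 0.25, 0.25 and 0.28. For the _s_at set and the brightest set of hey1.S, which were closer to each other (0.24), the nearest other gene was gmnn.L, the gene of the replication inhibitor geminin, at 0.27 and 0.33, followed by cnfn.1.L and the fibrillin gene fbn3.L. The gmnn.L set read 943.4, 124.1 and 168.9 in ICD and 52.7 and 77.3 in HMM. It thus also stood highest on ICD replicate 1.

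The tested sets of hes4.S and the third hey1.S set were closest to one another (0.17 to 0.19) and had mrto4.L, the myosin gene myo1c.L or both among the nearest other genes, at 0.24 to 0.39, and cd82.L and pdlim1.L at 0.31 and 0.37 for the _x_at set. The other genes nearest to hes5.1.L were farther away, bmp7.2.L, gmnn.S and gmnn.L at 0.85, 0.86 and 0.90, and the _s_at set of hey1.S lay at 0.87. Nearest to hes1.L were rasgef1a.L, the tubulin gene tubb4b.L and baiap2l1.S, at 0.09 to 0.12. Nearest to hes1.S were rgcc.S, the amino acid transporter gene slc7a8.L and pck1.L, a gene of glucose synthesis, at 0.16 to 0.19, and these also stood highest on HMM replicate 2.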

How the data were processed

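Total RNA of 5 explant samples was labelled with biotin and hybridised to Affymetrix arrays with 1 colour, per the labels' protocols. The values deposited by the authors are signal intensities on a linear scale, made with MAS5 per the submitters' processing notes, which state no version; further settings were not found in those sources. MAS5 subtracts mismatch signal, so dim values are noisy, and its scaling (2% trimmed mean 200.03 on every array) removes differences in total RNA.

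From the 15611 probe sets 120 controls were left out. The platform annotation gave 1 symbol to 9304 of the rest, several to 195 and none to 5992, and 9227 gene IDs were found in RefSeq's table (2 symbols updated). Those with several symbols stayed unnamed. The pseudocount, 5.9, was the 10th percentile of all values. limma 3.58.1 (R 4.3.3) with lmFit and eBayes with a variance trend was fitted to all 9981 kept probe sets of the 5 arrays, with group as the 1 factor, a two-sided test, Benjamini-Hochberg adjusted p and a threshold of 0.05. Homeolog ratios were fitted likewise over 690 genes, the brightest set standing for each homeolog. The code was tested on simulated data. Figures used matplotlib 3.10.9.

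The genes described and the gene lists were chosen with earlier results of these data known, so no list was tested as a set. Named were all probe sets of the 8 genes, called genes of each pathway list with up to 3 others by smallest p, and the 3 nearest profiles of other genes per tested probe set. The genes rbpj.S, pax6.L and itln1.L, the other named marker genes and the dim hes5 examples were chosen after their values were seen. Matching was by symbol, and the brightest kept set stood for each listed gene. As alternatives, arrays were quantile normalized or centred on their medians, with the pseudocount dropped or at 4 times its value, no filter and one at the 60th percentile (110.7), eBayes without trend or robust, each array left out, and the replicate number as a block. The number of arrays limits the precision. No sequences were used.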

Additional observations from a re-analysis of the deposited data

How the results depend on the processing

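Of 140 recomputed differences of the 14 probe sets, 126 showed no change of direction or call, 5 lost the call, 8 gained one and 1 turned its sign. The cause was not tested unless stated. Settings of the filter or of eBayes leave a difference itself as it was, so its direction could not change there. The 4 sets too dim to test were recomputed only with no filter and had no call to keep. The count is thus no measure of robustness. All 5 losses were of hes4.L. It was lost with eBayes without trend (1.12, limma adjusted p = 0.0502), which left 0 of the 10 tested sets called. The other losses came without ICD replicate 2 or 3 or either HMM replicate, fits with fewer samples. The sign turned for hes1.S, which ran from -2.19 to 0.114 over the arrays left out, the latter without the second HMM array.

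Leaving out 1 array at a time, the number of called probe sets ran from 11 to 843 (504 with all arrays), of higher ones from 1 to 362 (155) and of lower ones from 10 to 481 (349). Of the Hes, Hey and nrarp probe sets 0 to 3 were called higher (1 with all arrays) and 0 lower. The count of called probe sets was 843 with ICD replicate 1 left out, 22 with ICD replicate 2, 151 (30 higher and 121 lower) with ICD replicate 3, 336 with HMM replicate 1 and 11 with HMM replicate 2, where 1091 had an unadjusted p under 0.05. Fits without an HMM array take the spread from the ICD arrays.

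Groups share replicate numbers 1 and 2, with no label saying that a number marks a shared batch. Deviations from the group means correlated at 0.65 for replicates 1 and 0.51 for replicates 2, across genes; with 2 HMM arrays these mirror each other, so they do not settle a pairing. The fit with the replicate number as a block leaves 1 residual degree of freedom. It called 1714 of the 9981 tested probe sets, 744 higher and 970 lower. Of the 10 tested probe sets described here 5 were then higher (hes4.L, hes5.1.L, hes5.10.L and 2 of hey1.S) and 2 lower (hes1.L and hes1.S). Replicate number 3 exists only in ICD, so the block takes up that array. The differences thus equal those without ICD replicate 3, such as 1.06 for hes4.L, 3.44 for hes5.1.L and -1.43 for hes1.S. They rest on replicates 1 and 2 of each group.

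Changes of the homeolog ratios, never called, turned sign. For hes1 (-0.05) the value was 0.14 with 4 times the pseudocount and 0.13 with the replicate block, and it ran from -1.24 to 1.13 over the arrays left out. For hes4 (0.03) it was -0.29 with the dimmer probe set, -0.21 with the block, and from -0.38 to 0.68 over the arrays left out.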

Other observations

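Among the Hes-family genes not described above, the hes7 genes of the segmenting mesoderm were dim. One hes7.2.L set (Xl.15142.1.S1_at) read 38.7, 9.9 and 11.1 in ICD and 4.8 and 6 in HMM, while the other (Xl.24379.1.S1_at) read 12.1, 3.9 and 1.6 in ICD and 13.4 and 10.1 in HMM, so the sets of this gene disagreed on the order of the groups. For hes7.1.L the brighter set lay between 12 and 32.7 in ICD and read 16.5 and 2.6 in HMM, with overlapping groups. The circadian repressor gene bhlhe40.L, a more distant relative, read 17.9, 14.4 and 22.8 in ICD and 30.8 and 62.9 in HMM, every ICD array being below both HMM arrays. None of these sets lay above the filter value on 2 arrays, and none was tested.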
